A study of Mus musculus with 4 samples.

Results

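CCN genes and targets of the transcriptional coactivators YAP and TAZ with their TEAD partners were followed in the mouse line C3H10T1/2, whose cells are mesenchymal stem cells by the labels. The 10 genes were Ccn1, Ccn2, Ccn5, Ankrd1, Amotl1, Amotl2, Lats2, Tead1, Axl and Ptpn14, out of 18193 genes measured, and they were represented by the 25 probe sets annotated to one of these symbols alone, out of 45037 probe sets tested. A further probe set annotated to Lats2 together with Xpo4 was left out. Cells were given 100 ng/ml recombinant human BMP3, a growth factor related to TGF-beta and the activins, for 6 hours (2 arrays) or were left without it (2 control arrays). All 4 arrays came from the same line under standard culture, and the labels call the 2 arrays of a group biological replicates. The line is a cell culture model, so no tissue context is present in either group. Levels are log2 intensities, a scale inferred from the deposited values, and differences are BMP3 minus control on that scale.

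CCN proteins are secreted matricellular proteins that bind integrins, heparan sulfate and growth factors in the extracellular matrix. In the Hippo pathway the kinases LATS1 and LATS2 phosphorylate YAP and TAZ and keep them out of the nucleus. When this restraint is lifted by spread cell shape, stiff matrix or serum lipids, YAP and TAZ bind TEAD factors on DNA and switch on genes such as Ccn1, Ccn2 and Ankrd1, along with genes for the pathway's own inhibitors, among them Lats2 and Amotl2. In mesenchymal cells this output is known for its link to cell spreading and to the choice between bone and fat lineages.

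TEAD factors recognise the letters GGAATG, or CATTCC on the other strand. Upstream sequences were read for 7 of the 10 genes from RefSeq (GRCm38.p6), as the 250 bases before the annotated start, and Lats2 had 2 such windows. The letters were present upstream of 5 of these 7 genes, whereas 12.6% of 32851 windows of the same length held them. Because the genes are known targets of TEAD, this is a description of the sequences and no finding of the arrays. The 5 windows are shown since they include both genes that differed mostly between replicate numbers (Ccn1 and Amotl2) and genes whose BMP3 arrays lay above the controls (Ankrd1, Axl and Ptpn14). Capitals mark the match, and each sequence runs 5′ to 3′ toward the gene.
Ccn1 (chr3:145649986-145650235, minus strand): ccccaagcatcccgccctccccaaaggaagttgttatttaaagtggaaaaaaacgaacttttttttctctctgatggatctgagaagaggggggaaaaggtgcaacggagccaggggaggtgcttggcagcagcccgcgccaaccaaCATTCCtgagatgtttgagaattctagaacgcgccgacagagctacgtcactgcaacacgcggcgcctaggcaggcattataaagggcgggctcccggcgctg
Amotl2 (chr9:102717554-102717803, plus strand): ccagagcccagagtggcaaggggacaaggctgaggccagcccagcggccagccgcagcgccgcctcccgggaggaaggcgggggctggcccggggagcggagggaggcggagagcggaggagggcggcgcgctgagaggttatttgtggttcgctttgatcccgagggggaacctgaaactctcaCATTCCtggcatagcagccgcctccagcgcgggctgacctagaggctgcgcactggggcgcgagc
Ankrd1 (chr19:36119845-36120094, minus strand): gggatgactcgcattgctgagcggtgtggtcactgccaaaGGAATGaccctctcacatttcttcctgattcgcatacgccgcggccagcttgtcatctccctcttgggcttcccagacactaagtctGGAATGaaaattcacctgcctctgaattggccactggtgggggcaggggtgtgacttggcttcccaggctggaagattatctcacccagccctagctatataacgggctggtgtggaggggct
Axl (chr7:25788734-25788983, minus strand): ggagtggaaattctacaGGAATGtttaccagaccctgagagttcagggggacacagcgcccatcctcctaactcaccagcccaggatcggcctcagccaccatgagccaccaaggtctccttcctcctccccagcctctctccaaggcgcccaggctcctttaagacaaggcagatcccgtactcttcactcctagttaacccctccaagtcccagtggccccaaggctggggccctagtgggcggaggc
Ptpn14 (chr1:189728018-189728267, plus strand): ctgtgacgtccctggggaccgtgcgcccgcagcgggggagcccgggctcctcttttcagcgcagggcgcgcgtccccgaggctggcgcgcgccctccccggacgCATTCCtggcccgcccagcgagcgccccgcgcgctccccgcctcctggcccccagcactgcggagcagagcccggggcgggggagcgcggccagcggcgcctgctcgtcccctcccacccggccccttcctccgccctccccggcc
The match lay 98 to 103 bases before the start of Ccn1, 60 to 65 before that of Amotl2, 228 to 233 before that of Axl and 141 to 146 before that of Ptpn14. Ankrd1 had 2 matches, at 118 to 123 and at 205 to 210 bases before its start. The windows of Amotl1 and Lats2 did not hold these letters. An AP-1 motif (TGANTCA, its own reverse complement, 6.75% of windows), the palindromic SMAD motif GTCTAGAC (0.167% of windows) and the CArG box of serum response factor (1.47% of windows) had no match in any window of these 7 genes. Windows of this size leave out distal enhancers, where much TEAD binding is known to occur.

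The arrays had median log2 levels of 3.31 to 3.40, and 37.7% to 38.6% of probe sets reached a level of 6. Mesenchymal markers were bright, with a mean level of 13.17 to 13.31 in BMP3 arrays and of 13.09 to 13.19 in control arrays over 8 genes. All 5 endothelial markers lay under the median of every array, and of 5 immune markers none averaged a level of 6. Of 5 epithelial markers only Epcam averaged over 6, at 1 of its 2 probe sets. The mean level of 18S ribosomal RNA probe sets was 8.99 and 9.90 in BMP3 arrays, against 11.41 and 10.50 in control arrays, and added poly-A spike-ins were also lower in BMP3 arrays (Dap 9.13 and 8.85, against 10.39 and 9.86). The part of these in the differences below was not tested. The labels do not say that the replicates came from separate days or passages, so the p-values measure only the spread between these arrays.

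None of the 25 member probe sets passed limma's Benjamini-Hochberg threshold of 0.05, and neither did any of the 45037 (0%, smallest adjusted p = 0.213). At an unadjusted p under 0.05, 2 of the 25 were counted, both of Ptpn14, against 8.39% of all probe sets. Requiring also a 1.5-fold difference left 1 of 25 (Ptpn14, higher), against 2.81% in either direction and 0.808% higher over all probe sets. A level here is a sum over all cells of a culture, in which fewer cells of a kind and less RNA per cell cannot be told apart. The counts are near the background, and every difference below is therefore given as a value that did not pass the adjusted test. Of the 25 probe sets, 18 averaged a log2 level of 6 or more. In 6 of these 18 both BMP3 arrays lay above both control arrays, and in 3 both lay below, against 23.9% and 24.7% of 17152 probe sets at that level. By the brightest probe set of each gene, 7 genes were higher and 3 lower in BMP3 arrays, with a median difference of 0.35, against 0.02 over 9185 genes averaging 6 or more. That median was -0.03 without BMP3 replicate 2 and -0.06 without control replicate 1. Both fits leave the replicate numbers unequal between the groups, so treatment and replicate number cannot be told apart in them.

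**Figure D1:**
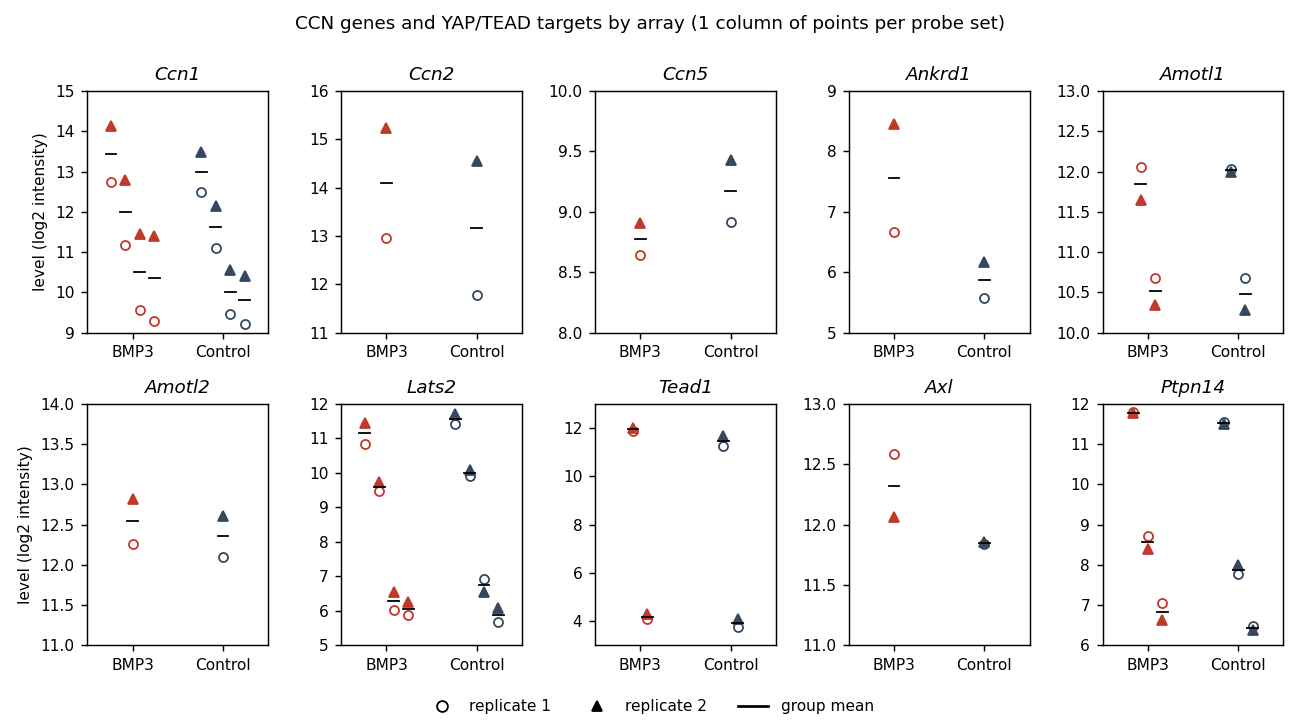
Log2 level (vertical axes, scaled separately for each gene) of the 20 member probe sets whose group means lay above the array medians, in BMP3 arrays on the left and control arrays on the right of each panel, with circles for replicate 1, triangles for replicate 2 and bars for group means. Both triangles lie above both circles for each probe set of Ccn1 and for Ccn2 and Amotl2, whereas for Ankrd1, Axl and the 3 probe sets of Ptpn14 both BMP3 points lie above both control points.

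Ccn1 encodes a CCN protein (also called CYR61) and is an immediate early gene as well as a YAP target. Its brightest probe set (1416039_x_at) had levels of 12.73 and 14.14 in BMP3 replicates 1 and 2, against 12.48 and 13.48 in control replicates 1 and 2. Both second replicates were high and both first replicates low, and the groups overlapped. The group means were 13.43 ± 0.99 in BMP3 arrays and 12.98 ± 0.71 in control arrays (SD, n = 2 each), a difference of 0.45 ± 0.68 (SE, limma adjusted p = 0.938). The other 3 probe sets ordered the arrays by replicate number in the same way, with differences of 0.37 to 0.54 and standard errors of 0.76 to 0.96. Of these, 1442340_x_at and 1457823_at were designed from the same expressed sequence, and a name ending in x_at marks probes that can pair with other transcripts, so the 4 are not independent measures. Replicate 2 exceeded replicate 1 by 1.40 to 2.10 in BMP3 arrays and by 1.00 to 1.20 in control arrays, more than the difference between the groups at each probe set. Each of the 4 differences turned negative without BMP3 replicate 2 and without control replicate 1, fits in which the replicate numbers are unequal between the groups. Within each replicate number the BMP3 array was the higher one at all 4 probe sets. With the replicate number as a block the brightest had 0.45 ± 0.13 (SE, limma adjusted p = 0.314), though the labels do not state a pairing.

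Ccn2 encodes connective tissue growth factor, a widely used readout of YAP and of TGF-beta signalling. Its single probe set (1416953_at) stood at 12.96 and 15.22 in BMP3 replicates 1 and 2, and at 11.77 and 14.56 in control replicates 1 and 2. The spread within each group was the widest among the 25 probe sets, at 2.26 in BMP3 arrays and 2.78 in control arrays, and both second replicates again lay above both first replicates. The difference was 0.93 with a standard error of 1.42 and a 95% interval of -3.46 to 5.32 (limma adjusted p = 0.939). It became -0.20 without BMP3 replicate 2 and -0.46 without control replicate 1. Within each replicate number the BMP3 array was the higher one.

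Ccn5 encodes a CCN protein that lacks the C-terminal cysteine knot of its relatives and often acts against CCN2. It had 8.65 and 8.91 in BMP3 arrays, against 8.92 and 9.43 in control arrays. The BMP3 arrays were the lower ones, though BMP3 replicate 2 and control replicate 1 were almost level. The difference was -0.40 ± 0.23 (SE, limma adjusted p = 0.85), and it ran from -0.14 (control replicate 2 left out) to -0.65 (control replicate 1 left out).

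Ankrd1 encodes a nuclear ankyrin repeat cofactor, best known from heart muscle, and is a much used YAP target. Its brighter probe set (1420992_at) had 6.66 and 8.45 in BMP3 arrays, against 5.57 and 6.16 in control arrays. Both BMP3 arrays lay above both control arrays, and BMP3 replicate 2 stood far above the other 3. The means were 7.55 ± 1.26 in BMP3 arrays and 5.87 ± 0.42 in control arrays (SD, n = 2 each), a 3.22-fold difference (1.68 on the log2 scale, standard error 0.75, limma adjusted p = 0.757). It was the largest difference among the 20 member probe sets for which one is given, and its 95% interval ran from -0.62 to 3.99. Without BMP3 replicate 2 it was 0.79, and without BMP3 replicate 1 it was 2.58. The dimmer probe set (1420991_at) had 3.80 and 5.86 in BMP3 arrays, against 2.65 and 3.78 in control arrays, the same order of arrays. Its control mean of 3.21 lay below the array medians, so no difference is given for it. Both probe sets of Ankrd1 were designed from the same sequence record, so they are not independent measures.

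Amotl1 and Amotl2 encode angiomotin-like scaffold proteins of cell junctions that bind YAP and hold it in the cytoplasm, and Amotl2 is itself a YAP target. Amotl2 (1452387_a_at) had 12.26 and 12.82 in BMP3 arrays, against 12.10 and 12.61 in control arrays. As with Ccn1 and Ccn2, the second replicates lay above the first ones, by 0.56 in BMP3 arrays and 0.52 in control arrays, while the groups differed by 0.19 ± 0.30 (SE, limma adjusted p = 0.943). The BMP3 array of Amotl2 was the higher one within each replicate number. Amotl1 had overlapping groups, with 12.05 and 11.65 in BMP3 arrays and 12.03 and 12.00 in control arrays at its brightest probe set (1428785_at). Its 2 bright probe sets had differences of -0.16 and 0.04, with standard errors of 0.16 and 0.21, and 95% intervals of -0.67 to 0.34 and of -0.60 to 0.68. In both Amotl1 probe sets the second replicates were the lower ones, opposite to Amotl2.

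Lats2 encodes a kinase that phosphorylates YAP, and it is induced by YAP as feedback. Its brightest probe set (1439441_x_at) had 10.83 and 11.45 in BMP3 arrays, against 11.41 and 11.69 in control arrays, with an overlap of the groups. The next one (1437101_at) had 9.47 and 9.73 in BMP3 arrays, against 9.91 and 10.09 in control arrays, where both BMP3 arrays were lower (difference -0.40, standard error 0.13, limma adjusted p = 0.597). The third (1419678_at) had 6.02 and 6.55 in BMP3 arrays, against 6.94 and 6.56 in control arrays, and its lower BMP3 level rested on replicate 1. These 3 had similar differences, of -0.41, -0.40 and -0.46, and all 3 kept that direction with any 1 array left out. Their size did not hold, since without BMP3 replicate 1 the first was -0.0994 and the third -0.20, and without BMP3 replicate 2 they were -0.72 and -0.73. A probe set near a level of 6 (1425420_s_at) went the other way, at 0.19 with a standard error of 0.22, and the remaining 2 lay below the median of every array. One of those (1419679_at) was designed from the same sequence record as 1419678_at, so probe sets of 1 gene can disagree in whether they detect it.

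Tead1 encodes a DNA-binding partner of YAP and TAZ. Its bright probe set (1429556_at) had 11.87 and 12.01 in BMP3 arrays, against 11.27 and 11.67 in control arrays. Both BMP3 arrays were the higher ones, and the difference was 0.47 ± 0.17 (SE, limma adjusted p = 0.652). A dim probe set of Tead1 (1423434_at) differed by 0.26 with a standard error of 0.17, and its groups overlapped. With 1 array left out these differences ran from 0.27 to 0.67 and from 0.08 to 0.45.

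Axl encodes a receptor tyrosine kinase for the ligand GAS6 and is a YAP target in several cell types. It had 12.58 and 12.06 in BMP3 arrays, against 11.84 and 11.85 in control arrays (1423586_at). The controls were almost identical and both BMP3 arrays lay above them, replicate 1 more so. The difference was 0.48 ± 0.21 (SE, limma adjusted p = 0.752). Leaving out BMP3 replicate 1 gave 0.22 and leaving out BMP3 replicate 2 gave 0.74. Its other probe set stayed below the array medians.

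Ptpn14 encodes a protein tyrosine phosphatase that binds YAP and restrains it. Its brightest probe set (1455359_at) had 11.79 and 11.77 in BMP3 arrays, against 11.55 and 11.50 in control arrays. The second (1436442_at) had 8.73 and 8.40 in BMP3 arrays, against 7.77 and 8.00 in control arrays, and the third (1421499_a_at) had 7.06 and 6.62 in BMP3 arrays, against 6.47 and 6.38 in control arrays. In all 3 both BMP3 arrays lay above both control arrays. The differences were 0.25 with a standard error of 0.04, 0.68 with 0.16, and 0.41 with 0.18 (limma adjusted p = 0.341, 0.457 and 0.746). The small standard error of 1455359_at depended on the fit. It was 0.119 with probe sets of a mean under 6 dropped (limma adjusted p = 0.451). With a prior that followed intensity it was 0.116 (limma adjusted p = 0.792). The second corresponded to a 1.61-fold higher level, the only member past an unadjusted p under 0.05 and a fold of 1.5, and it no longer passed without BMP3 replicate 1 (0.52) or without control replicate 1 (0.57). Differences stayed positive with any 1 array left out, at 0.23 to 0.28, 0.52 to 0.85 and 0.20 to 0.63. The 3 probe sets thus had the same direction but differed in size, and the brightest had the smallest difference.

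**Figure D2:**
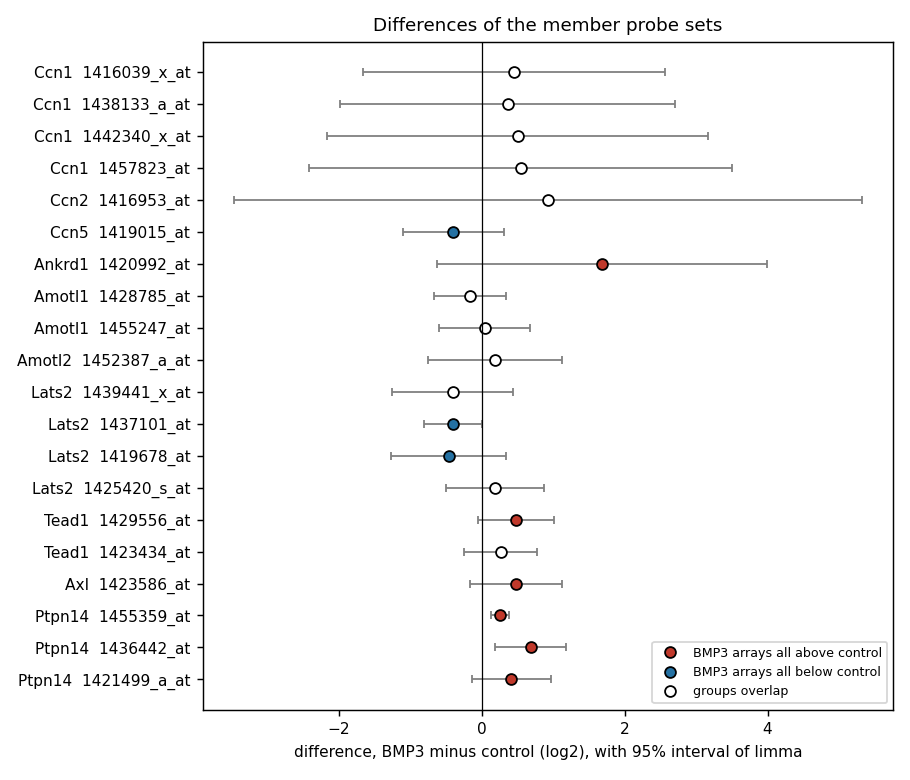
Difference of BMP3 minus control on the log2 scale (horizontal axis) with limma's 95% interval for 20 member probe sets (rows), filled where the 2 BMP3 arrays lay all above (red) or all below (blue) the 2 control arrays. Only the intervals of Ptpn14 1455359_at (0.13 to 0.38) and 1436442_at (0.19 to 1.18) exclude 0, before adjustment for the number of probe sets. The standard error of 1455359_at was 0.04 in this fit and 0.119 with dim probe sets dropped. Ccn1, Ccn2 and Ankrd1 have the widest intervals.

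By their brightest probe sets, Ccn1, Ccn2, Amotl2 and Lats2 had both second replicates above both first replicates (4 of 10 genes, against 14.1% of 9185 genes), and Amotl1 had them below (1 of 10, against 24.5%). Ankrd1, Tead1, Axl and Ptpn14 had both BMP3 arrays above both control arrays (4 of 10, against 26.1%), and Ccn5 had them below (1 of 10, against 21.7%). Ankrd1 combined a higher BMP3 level with a gap of 1.79 between the BMP3 replicates and of 0.59 between the control replicates. By the brightest probe sets, Ptpn14 had the smallest gap between replicates 2 and 1 among the 10 when averaged over both groups. This gap was -0.02 in BMP3 arrays and -0.06 in control arrays. Its other probe sets had wider gaps, of -0.33 and 0.23 (1436442_at) and of -0.44 and -0.09 (1421499_a_at).

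**Figure D3:**
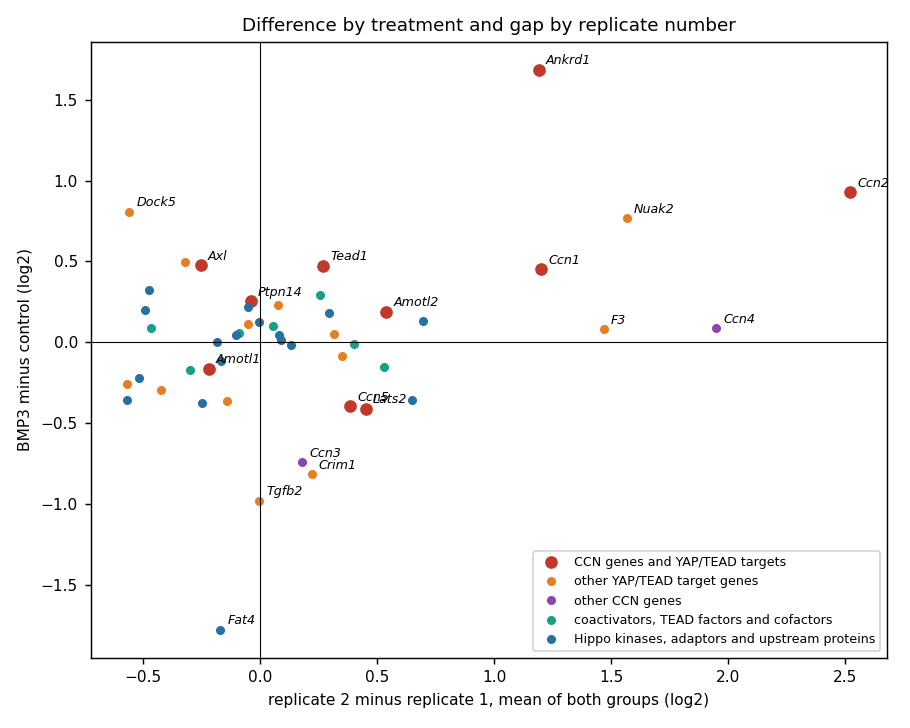
Difference of BMP3 minus control (vertical axis, log2) against replicate 2 minus replicate 1 averaged over both groups (horizontal axis, log2) for the brightest probe set of each gene averaging a level of 6 or more, coloured by gene list. Ccn2 (2.52), Ccn4 (1.95), Nuak2 (1.57) and F3 (1.47) lie farthest to the right, while Fat4 lies lowest, a little left of 0 on the horizontal axis.

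Other genes of the pathway were read from lists chosen with earlier results of these data known. Of the coactivators, TEAD factors and cofactors (Yap1, Wwtr1, Tead2, Tead3, Tead4, Vgll3 and Vgll4), 4 were higher and 3 lower in BMP3 arrays, 0 of 7 passed the unadjusted p and 1.5-fold threshold in either direction (against 1.18% of genes higher and 1.65% lower), and in 0 of 7 did the groups separate, against 26.1% of 9185 genes with BMP3 arrays above and 21.7% below. Their differences ran from -0.17 to 0.29 with a median of 0.06. The 3 of smallest p were Wwtr1, which encodes TAZ, at 12.43 and 12.35 in BMP3 arrays, against 12.20 and 12.38 in control arrays, Tead4 with a difference of 0.29 ± 0.24 (SE) and Vgll4, a cofactor that competes with YAP for TEAD factors, with -0.17 ± 0.19. Both turned with 1 array left out, Tead4 running from -0.006 to 0.588 and Vgll4 from -0.388 to 0.0484.

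Of 18 measured Hippo kinases, adaptors and upstream proteins, 11 were higher and 7 lower by their brightest probe sets. At these, 1, Fat4, was past the unadjusted p and 1.5-fold threshold, on the lower side (against 1.65% of genes lower and 1.18% higher). A dimmer probe set of Taok1 (1456975_at, mean level 6.84) also passed it on the lower side, at -1.15 ± 0.31 (SE). The brightest of Taok1 had -0.38 ± 0.17, whereas 1455432_at of the same gene had 0.13 ± 0.05. Of the 17 averaging a level of 6 or more, both BMP3 arrays lay above both control arrays in 2 and below them in 2, against 26.1% and 21.7% of 9185 genes. Fat4 encodes a giant atypical cadherin, the vertebrate relative of the fly protein Fat, and a receptor for DCHS1. It had 12.14 and 12.08 in BMP3 arrays, against 14.03 and 13.75 in control arrays (1459749_s_at), a 3.43-fold lower level with a difference of -1.78 and a standard error of 0.12 (limma adjusted p = 0.217). Its second probe set had 10.41 and 10.11 in BMP3 arrays, against 11.68 and 11.73 in control arrays, a difference of -1.45 with a standard error of 0.12. Both groups were tight and far apart at both probe sets, and the difference of the first ran from -1.92 to -1.63 with any 1 array left out. Nf2, which encodes the scaffold merlin, had 0.13 ± 0.04 (SE) and Frmd6, a related membrane adaptor gene, 0.22 ± 0.08. A dimmer probe set of Nf2 (1450382_at, mean level 5.12) went the other way, with both BMP3 arrays below both control arrays. It differed by -0.35 ± 0.16 (SE). The median over the list was 0.02. Dchs1 stayed below the array medians.

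Of the other CCN genes, Ccn3, whose product often opposes CCN2, was lower in BMP3 arrays, at 14.04 and 14.15, against 14.71 and 14.96 in control arrays (1426851_a_at, difference -0.74, standard error 0.11, limma adjusted p = 0.325). Its other probe set had a difference of -0.55 with a standard error of 0.06, and the groups were separate at both. Ccn4, a Wnt-responsive CCN gene, had 10.16 and 12.55 in BMP3 replicates 1 and 2 and 10.51 and 12.02 in control replicates 1 and 2. Both second replicates lay above both first ones, as for Ccn1 and Ccn2, and the difference was 0.09 with a standard error of 1.12. Unlike in those genes, the BMP3 array was the lower one within replicate 1 and the higher one within replicate 2. Ccn6 lay below the median of every array.

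Of 15 other YAP/TEAD target genes, 7 were higher and 8 lower by their brightest probe sets. At these, 2 were past the unadjusted p and 1.5-fold threshold, both lower (against 1.65% of genes lower and 1.18% higher). A dimmer probe set of Asap1 (1425572_a_at) passed it on the higher side, at 0.63 ± 0.14 (SE), though the brightest had 0.11 ± 0.12. Dimmer probe sets of Tgfb2 passed it on the lower side. The median over the 15 genes was -0.03, against -0.01 over all 18193 genes. That median was the value of Nt5e, a gene below the median of every array. Among the 13 genes averaging a level of 6 or more, 7 were higher and 6 lower. Their median was 0.05, against 0.02 over 9185 genes at that level. Tgfb2, which encodes a TGF-beta ligand, had 7.77 and 7.89 in BMP3 arrays, against 8.87 and 8.74 in control arrays. Crim1, which encodes a transmembrane protein that binds BMPs, had 10.33 and 10.62 in BMP3 arrays, against 11.22 and 11.37 in control arrays. Both BMP3 arrays were lower in each, with differences of -0.98 ± 0.08 and -0.82 ± 0.13 (SE). Rbms3, an RNA-binding protein gene, had -0.36 ± 0.10. Of the 13 genes averaging a level of 6 or more, both BMP3 arrays lay above both control arrays in 3 (Dock5, Myof and Arhgef17, with differences of 0.81, 0.49 and 0.23, named after their values were seen) and below them in 3, against 26.1% and 21.7% of 9185 genes.

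The gap between replicate numbers was wide for a few genes of the pathway. Replicate 2 exceeded replicate 1 by at least 1 on the log2 scale in both groups at the brightest probe set of 49 of 9185 genes averaging a level of 6 or more (0.533%), and 4 of these were among the 49 genes of the 10 and the pathway lists at that level. The threshold was chosen after the values were seen. They were Ccn2, Ccn4, Nuak2 and F3, the last 2 named after their values were seen. Ccn1 fell just short, with a control gap of 0.999 at its brightest probe set. Its other probe sets had gaps over 1 in both groups. Nuak2, which encodes a kinase induced by YAP, had 9.35 and 11.34 in BMP3 replicates 1 and 2, against 9.01 and 10.15 in control replicates 1 and 2. F3, which encodes tissue factor, had 11.44 and 12.99 in BMP3 replicates, against 11.44 and 12.82 in control replicates, so the gap between replicates was wider than that between groups.

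**Figure D4:**
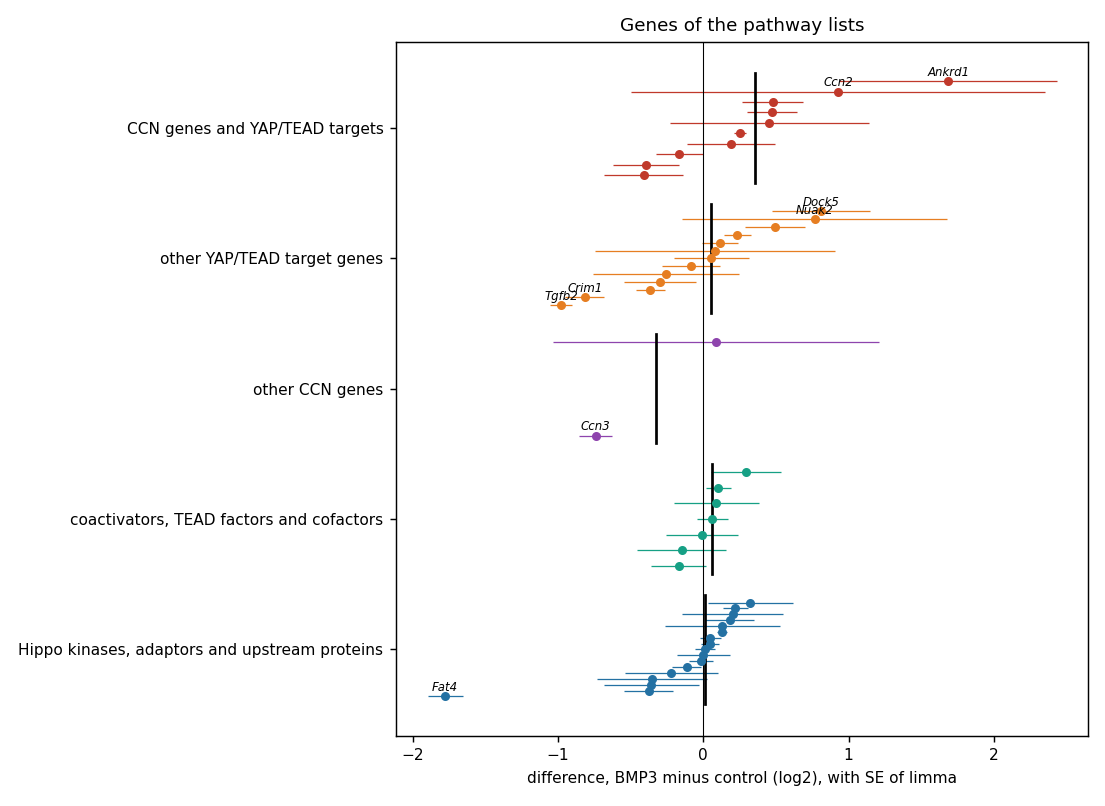
Difference of BMP3 minus control (horizontal axis, log2) with limma's standard error for the brightest probe set of each gene averaging a level of 6 or more, by gene list (rows), with a black bar at each list's median. The medians lie at 0.35 for the 10 genes, 0.05 for other target genes, -0.33 for other CCN genes, 0.06 for coactivators and TEAD factors and 0.01 for Hippo kinases and adaptors, with Fat4 farthest to the left.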

How the data were processed

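Biotin-labelled cRNA was hybridised to 4 Affymetrix 3' arrays, per the labels' protocols. The authors deposited a single value for each probe set on each array, read here as log2 from its range and shape. The submitters' processing notes name Partek with no version or step, with background correction, normalization and probe summary not given in the sources used here. A normalization that equalises arrays would hide a change common to most transcripts. The 2 arrays a group limit the precision.

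Groups came from the sample titles. After 64 control probe sets were left out, 45037 entered a two-sided fit without covariates (limma 3.58.1 under R 4.3.3, functions lmFit and eBayes, 1.18 prior degrees of freedom), and p-values were adjusted over all of them (Benjamini-Hochberg). Symbols came from the platform annotation (34945 probe sets with 1 symbol, 932 with several, 9160 with none), and 34741 were checked by Entrez identifier, of which 0 changed. A gene is represented by the probe set of highest mean. No difference is given where a group mean lay below the highest array median. Named were all members, and from each list up to 4 genes past the looser threshold, filled to 3 by smallest p. Members and lists were chosen with earlier results of these data known. Stk3 and Ly6a had no probe set of their own here. The fit was tested on simulated data with independent noise on each array. Deviations shared by same-numbered arrays were not simulated, so that test does not cover them. As alternatives, arrays were left out singly, the replicate number entered as a block, values were renormalized (cyclic loess, quantile or median centring), dim probe sets (mean under 6) were dropped, the prior followed intensity, 16 was added on the linear scale, or all probe sets of a gene were averaged.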

Additional observations from a re-analysis of the deposited data

How the results depend on the processing

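No alternative brought a probe set past the adjusted threshold, member or not, and the count stayed at 0 (as reported, 3779 had an unadjusted p under 0.05). Of 218 alternative values for the 20 member probe sets with a difference, 201 kept their direction and 17 turned, all 17 on leaving out 1 array and in 9 probe sets. With 1 array left out, Ccn1 ran from -0.25 to 1.15, -0.43 to 1.17, -0.44 to 1.45 and -0.51 to 1.59 at its 4 probe sets, Ccn2 from -0.46 to 2.32, Amotl1 from -0.3661 to 0.0372 and -0.16 to 0.24, Amotl2 from -0.0914 to 0.468, and Lats2 1425420_s_at from -0.0107 to 0.384. The lone array of such a fit is assumed to vary like the other group. The median of the 10 genes ran from -0.0584 to 0.466 over these fits, and from 0.29 to 0.39 under the other alternatives. Probe sets past the unadjusted p and 1.5-fold threshold numbered 1 of the members (Ptpn14) and 1265 in all; without 1 array these were 1 to 4 and 1071 to 2277, the highest total without BMP3 replicate 1. Ptpn14 was lost without BMP3 replicate 1, where only Ankrd1 passed among the members, and without control replicate 1, where only Ccn5 passed. An intensity trend added Ankrd1 (2 members). Same-numbered arrays deviated together (r = 0.60 across 17152 probe sets averaging 6 or more, which are not independent), but 2 pairs and the labels do not settle a pairing. With the replicate number as a block, 2164 probe sets and 4 member probe sets (Ptpn14, Ccn2 and both of Ankrd1) were past the looser threshold, and 0 past the adjusted one (Ccn2 0.93 ± 0.16, SE, limma adjusted p = 0.19). Leaving out 1 array leaves the replicate numbers unequal between the groups. The cause of these shifts was not tested.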
